A study of Mus musculus with 70 samples.

Results

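The genes described here are Myc and 33 genes of ribosome biogenesis and polyamine synthesis, a class of genes known to be activated by MYC, followed in 8 mouse cancer cell lines after interferon gamma (IFNg), interferon beta (IFNb) or no stimulation (NS). The 34 members were taken by symbol from a table of 35197 genes, and all 34 were among the 16147 genes with enough counts to test. Cells were kept for 48 hours with 100 ng per mL of IFNg or 1000 activity units per mL of IFNb, or without either. No time is listed for the unstimulated cells. Panc02.3 and KPC.2 are pancreatic cancer lines, LLC is a lung cancer line, B16.1 and YUMMER1.7 are melanoma lines, and MC38.7 is a colorectal cancer line, all labelled C57BL/6. CT26.2, a colorectal cancer line, and Renca, a renal cancer line, are labelled BALB/c. The 24 groups (8 lines by 3 conditions) had 3 libraries each, except 2 (LLC with IFNg, Renca in NS) that had 2. Whether replicates came from separate cultures is not stated, and the tests therefore speak only to library-to-library spread, possibly technical.

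MYC is a transcription factor that pairs with MAX and binds the DNA letters CACGTG, the E-box, in the promoters of many growth genes. Among its best known targets are the genes that build ribosomes in the nucleolus. RNA polymerase I makes a long precursor rRNA, small nucleolar ribonucleoproteins (snoRNPs) guide its chemical modification, and assembly factors cut and fold it with ribosomal proteins into the small and large subunits. IFNg and IFNb bind different receptors on the cell surface, and interferons are known for antiviral defence and can also restrain cell growth.

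Depth spanned 668355 to 28550816 estimated counts (median 8644887), and the lowest count of any member in any library was 12. Levels below are CPM, each gene's counts scaled to a common library size after TMM scaling, so they are shares of a library's RNA, and more RNA per cell or more cells cannot be read from them. Each of the 70 libraries correlated best with the unstimulated group of its own line, including the Panc02.3 libraries with IFNg (r = 0.937 to 0.942 with their own line and at most 0.843 with another). Irf1, a transcription factor gene induced by interferons, rose with IFNg in all 8 lines, by 2.88 ± 0.06 on the log2 scale in MC38.7 to 6.04 ± 0.08 in B16.1. With IFNb Isg15, which encodes a ubiquitin-like protein induced by interferons, rose in 7 lines, by 0.52 ± 0.10 in CT26.2 to 9.24 ± 0.16 in LLC, and in YUMMER1.7 it differed by −0.20 ± 0.09 (edgeR, adjusted p = 0.42). Of 7 melanocyte markers 7 were at 1 CPM or more in unstimulated B16.1 and 1 in YUMMER1.7. Of 7 epithelial markers 2 reached that level in unstimulated CT26.2, 1 in MC38.7 and 4 in Panc02.3, where Epcam and Cldn4 were at 0.

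Myc itself separated the lines and the cytokines. In Panc02.3 it stood at 523, 456 and 440 CPM with IFNg, at 115, 112 and 123 CPM with IFNb and at 109, 89.9 and 103 CPM without stimulation. The 3 IFNg libraries all lay above the other 6, and the difference from NS was 2.24 ± 0.06 on the log2 scale (SE, n = 3 and 3; adjusted p = 1.1e-36), or 4.71-fold. These and the following tests are edgeR's quasi-likelihood tests, with p-values adjusted by the Benjamini-Hochberg method over all genes tested, and "rose" and "fell" mean an adjusted p under 0.05.

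In LLC the larger change of Myc came with IFNb. It measured 376 and 383 CPM with IFNg, 732, 722 and 765 CPM with IFNb, and 247, 260 and 264 CPM without stimulation, and the 3 groups did not overlap. Relative to NS, Myc rose by 0.56 ± 0.06 with IFNg (adjusted p = 2.1e-10) and by 1.53 ± 0.06 with IFNb (adjusted p = 1.2e-30). In B16.1, where unstimulated Myc was lowest, it rose with both cytokines. B16.1 had 58.1, 60.9 and 58.8 CPM with IFNg, 54.2, 52.5 and 46.7 CPM with IFNb, and 26.7, 23.5 and 25.1 CPM without stimulation. The log2 changes were 1.24 ± 0.08 with IFNg and 1.03 ± 0.08 with IFNb (adjusted p = 7.1e-21 and 3.2e-16).

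KPC.2 and Renca held the falls of Myc. In KPC.2 it was at 143, 125 and 126 CPM with IFNg, at 227, 219 and 213 CPM with IFNb and at 188, 197 and 182 CPM without stimulation. It fell by 0.52 on the log2 scale with IFNg (SE 0.06, adjusted p = 8.0e-10). With IFNb it rose by 0.22 ± 0.07 (adjusted p = 0.038), a call lost when any of 4 single libraries was left out (adjusted p = 0.11 to 0.21). In Renca it was at 209, 237 and 206 CPM with IFNg, at 177, 183 and 184 CPM with IFNb and at 238 and 233 CPM without stimulation. It fell by 0.38 with IFNb (SE 0.07, adjusted p = 1.5e-05), while the difference with IFNg was −0.11 ± 0.07 (adjusted p = 0.33).

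Changes of Myc in the other 3 lines were small. MC38.7 had 228, 232 and 252 CPM with IFNg, 264, 268 and 247 CPM with IFNb, and 228, 218 and 205 CPM without stimulation. There it rose by 0.26 ± 0.06 with IFNb (adjusted p = 3.6e-04), and the difference with IFNg was 0.13 ± 0.06 (adjusted p = 0.29). YUMMER1.7 had 96.7, 102 and 93.7 CPM with IFNg, 82.4, 84.0 and 84.4 CPM with IFNb, and 82.2, 72.4 and 75.5 CPM without stimulation. All of its stimulated libraries lay above the unstimulated ones, and Myc rose by 0.35 ± 0.07 with IFNg (adjusted p = 4.2e-05), with 0.12 ± 0.07 for IFNb (adjusted p = 0.54). CT26.2, where unstimulated Myc was highest, had 320, 313 and 294 CPM with IFNg, 293, 292 and 311 CPM with IFNb, and 316, 338 and 326 CPM without stimulation. It gave −0.08 ± 0.06 with IFNg and −0.13 ± 0.06 with IFNb (adjusted p = 0.50 and 0.36). The change in Myc differed between the 8 lines for IFNg (F test, adjusted p = 8.7e-34) and for IFNb (adjusted p = 1.0e-26). The gene lies on chromosome 15, at chr15:61985391-61990374 on the plus strand of GRCm38.

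**Figure D1:**
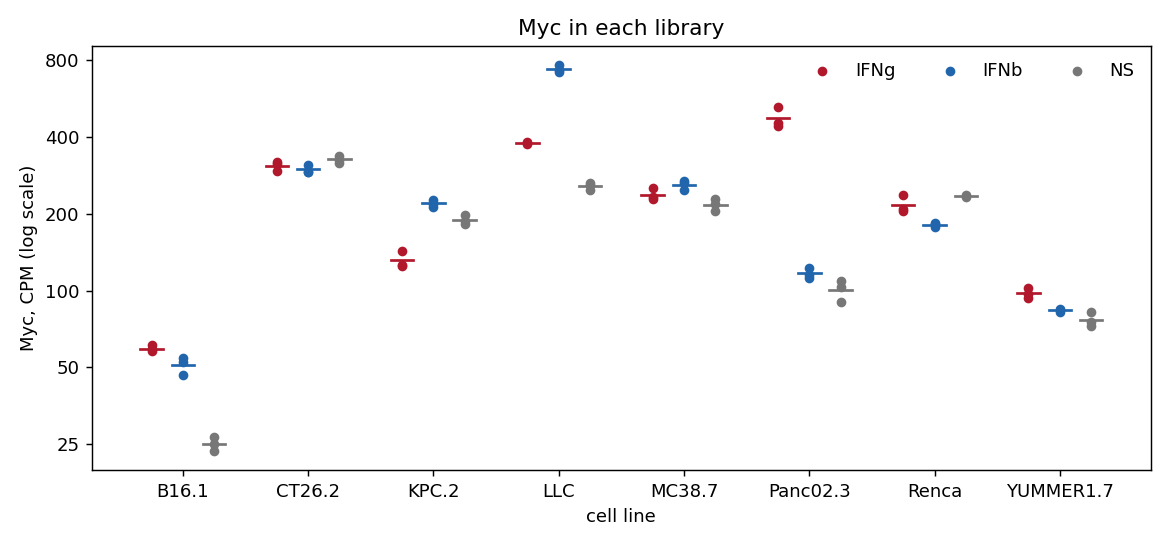
Myc in CPM (log axis) in each library, by line and treatment; points are libraries and short lines are group means. Panc02.3 with IFNg (440 to 523 CPM) and LLC with IFNb (722 to 765 CPM) stood farthest above their own NS libraries, and KPC.2 with IFNg lay below its own.

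In Panc02.3 with IFNg, all 34 members rose, against 23.2% of all genes tested, and 32 did so by at least 1.5-fold, against 15.1% of all genes. The median log2 change of the members was 2.07, while the median of all genes was −0.07. The members together took 1.26 to 1.43% of all counts with IFNg and 0.395 to 0.465% with IFNb, against 0.320 to 0.419% without stimulation. In 33 of the 34 members every IFNg library lay above every NS library, as did 22.8% of all genes. The exception was Bop1.

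Among the snoRNP proteins Nop56, Nolc1 and Nop58 changed most. Nop56, a core protein of the box C/D snoRNPs that direct methylation of rRNA, stood at 889, 807 and 668 CPM with IFNg and at 145, 79.5 and 113 CPM in NS. It rose 6.96-fold (log2 2.80 ± 0.12, adjusted p = 3.1e-29), and its partner Nop58 rose by 2.62 ± 0.11. The methyltransferase of the same particle, Fbl, rose less, by 1.55 ± 0.10. In the box H/ACA group, whose particles turn uridine into pseudouridine, the chaperone Nolc1 rose most, by 2.64 ± 0.11. The pseudouridine synthase Dkc1 rose by 2.23 ± 0.11, Gar1 by 2.05 ± 0.11 and Nhp2 by 1.85 ± 0.12.

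The 3 genes of the polymerase I group rose by 1.81 to 2.16 and the 4 nucleolar proteins by 1.0 to 2.31. Polr1b, one of the catalytic core subunits, had 68.4, 79.0 and 69.8 CPM with IFNg, against 20.8, 14.7 and 17.8 CPM in NS (adjusted p = 2.5e-26). The other, Polr1a, rose by 1.81 ± 0.08, and the nucleolar protein Mybbp1a rose by 2.16 ± 0.07. Mybbp1a had 1150, 1273 and 1107 CPM with IFNg, against 314, 223 and 252 CPM in NS. Nucleostemin (Gnl3) rose by 2.31 ± 0.10, nucleolin (Ncl) by 2.12 ± 0.07 and the RNA helicase Ddx21 by 2.07 ± 0.11. Nucleophosmin (Npm1), a histone and ribosome chaperone, had 2371, 2107 and 1977 CPM with IFNg, against 1113, 1020 and 1089 CPM in NS (log2 1.0 ± 0.06, adjusted p = 1.4e-22).

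All 9 factors of small subunit assembly rose, with a median of 1.92. Heatr1, needed for rRNA transcription and early cleavage, changed most (2.56 ± 0.10), and Rrp12, an export factor, rose by 2.54 ± 0.12. Rrp9, a protein of the snoRNP that starts small subunit processing, changed least. It had 26.5, 25.3 and 22.8 CPM with IFNg, against 17.5, 9.26 and 12.9 CPM in NS, a rise of 0.90 ± 0.14 (adjusted p = 7.1e-08). Between them lay Nop14 (2.21), Tsr1 (2.07), Pno1 (1.92), Utp20 (1.62), Wdr43 (1.41) and Nob1 (1.39), the last being the nuclease that makes the end of the mature small subunit rRNA.

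The large subunit factors spread more widely. Nop2, an rRNA methyltransferase, had the largest change of all members. It stood at 449, 432 and 382 CPM with IFNg, against 75.2, 39.2 and 54.2 CPM in NS, a rise of 7.42-fold (log2 2.89 ± 0.10, adjusted p = 1.0e-33). Nop16 rose by 2.61 ± 0.10, Rrp1b by 2.28 ± 0.10, Rrs1 by 1.90 ± 0.08 and Nip7 by 1.72 ± 0.11. The 3 proteins of the PeBoW complex, which act together on the large subunit precursor, were the least changed of the group. Wdr12 rose by 1.38 ± 0.09, Pes1 by 0.42 ± 0.06 and Bop1 by 0.26 ± 0.09.

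Bop1 and Pes1 stood at the low end of the members in this line. Bop1 had 99.5, 98.1 and 76.1 CPM with IFNg, against 95.3, 60.0 and 74.3 CPM in NS, and these ranges overlapped (adjusted p = 0.010). Pes1 had 173, 162 and 155 CPM with IFNg, against 126, 118 and 124 CPM in NS, with no overlap (adjusted p = 2.7e-09). The enzymes of polyamine synthesis rose about as much as Myc. Spermidine synthase (Srm) rose by 2.52 ± 0.10 and ornithine decarboxylase (Odc1), the first enzyme of the pathway, by 2.20 ± 0.06, with 653, 641 and 564 CPM for Odc1 with IFNg and 149, 119 and 136 CPM in NS.

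**Figure D2:**
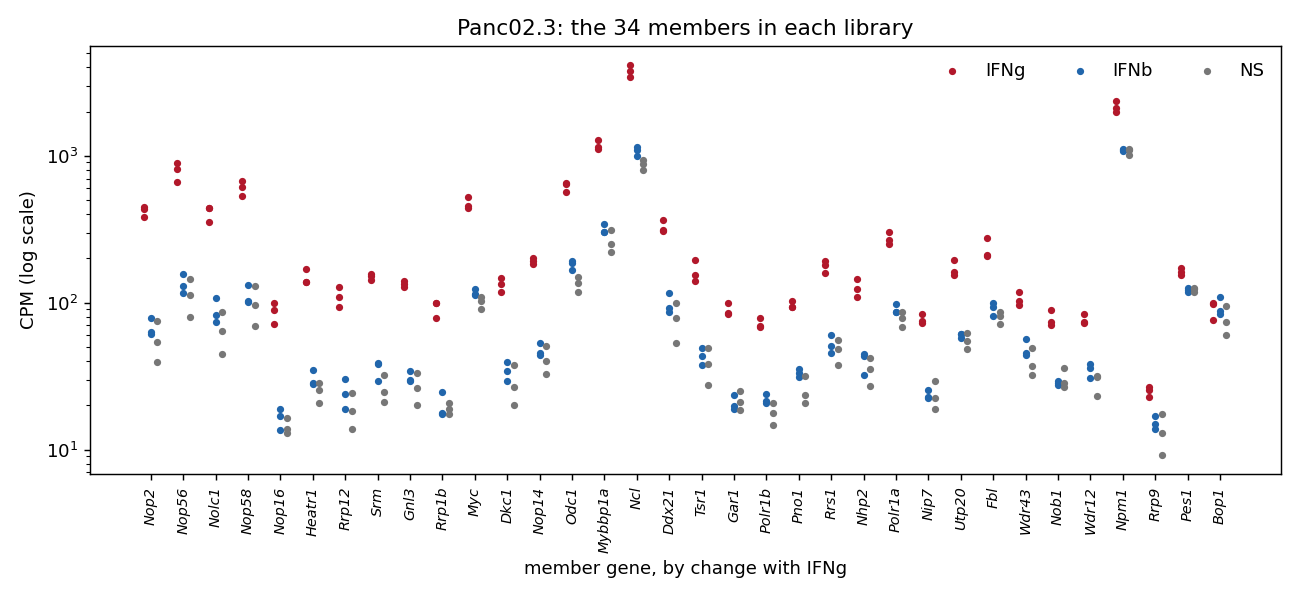
The 34 members in the 9 Panc02.3 libraries, in CPM on a log axis, ordered by the log2 change with IFNg; each point is a library. The IFNg libraries lie above the NS libraries for every member but Bop1, while IFNb libraries lie near NS.

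Panc02.3 differed from the other lines in this change. The change with IFNg minus the mean change of the other 7 lines was above 0 at an adjusted p under 0.05 in all 34 members (19.8% of all genes), with a median of 2.04. For Nop2 this difference was 2.73 ± 0.10 and for Myc 2.01 ± 0.07. With any single Panc02.3 library left out, 33 or 34 members were still called for IFNg against NS. Other measures moved in the same libraries. Of 13 mitochondrially encoded genes 11 fell (median −0.55), and the mitochondrial share of counts was 1.39 to 1.66% with IFNg, against 1.56 to 2.33% in NS. Their part in the result was not tested. The summed leukocyte markers were 5.39 to 7.25 CPM with IFNg, against 9.13 to 9.51 CPM in NS, with Ptprc and Cd3e at 0 in both. The summed epithelial markers were 1773 to 2445 CPM with IFNg, against 1972 to 2173 CPM in NS, and the summed mesenchymal markers 2293 to 2650 CPM with IFNg, against 3941 to 4823 CPM in NS, also not tested.

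Promoter sequence was available from RefSeq (GRCm38.p6) for 27 of the 34 members, as windows of 250 bases before and 50 after the gene's start. The entries did not include Myc, Fbl, Npm1, Rrp12, Bop1, Rrs1 and Srm. CACGTG, which reads the same on both strands, was found in 7 of the 27 windows (25.9%), against 8.09% of windows over 27025 genes. In Nop2 it began 60 bases before the start, and in the other 6 (22.2% of the members) it began after the start. Within the 250 bases before the start alone it was found in 1 of the 27 members (3.7%), against 6.86% of all genes. CACGTG reaching or lying past the start was found in 1.55% of all genes. That share includes matches that began a few bases before the start. This division of the window was made after the matches were seen. The sequences below are shown because they carry the letters MYC binds in members that rose in Panc02.3, and capitals mark the E-box. For Nop2 the 250 bases before the start are given (chr6:125131633-125131882, plus strand), and for the others 30 bases at chr11:72441347-72441376 (Mybbp1a, plus), chr11:74898092-74898121 (Tsr1, plus), chr11:17211540-17211569 (Pno1, minus), chr10:88826765-88826794 (Utp20, minus), chr17:71616220-71616249 (Wdr43, plus) and chr11:3963965-3963994 (Pes1, plus).
Nop2: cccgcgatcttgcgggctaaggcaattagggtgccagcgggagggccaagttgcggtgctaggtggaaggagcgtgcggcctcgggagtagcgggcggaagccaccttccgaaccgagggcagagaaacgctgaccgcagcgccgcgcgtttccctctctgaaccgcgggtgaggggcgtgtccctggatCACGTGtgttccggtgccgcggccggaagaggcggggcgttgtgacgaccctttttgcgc
Mybbp1a: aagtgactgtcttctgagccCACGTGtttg
Tsr1: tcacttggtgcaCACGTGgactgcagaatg
Pno1: tgcgctgtacaaccacgCACGTGttcctct
Utp20: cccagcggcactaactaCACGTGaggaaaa
Wdr43: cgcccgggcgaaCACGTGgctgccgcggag
Pes1: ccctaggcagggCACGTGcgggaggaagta

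Of these 7, Pes1 was one of the 2 members least changed in Panc02.3. The interferon gamma activated site, searched as TTCNNNGAA, was in 3 of 27 windows (Nop58, Polr1b and Nob1; 11.1%, against 9.55% of all genes), and the interferon-stimulated response element, searched on both strands as GAAA, any 2 bases and GAAA, in 1 (Nip7; 3.7%, against 3.99%). These matches describe letters in the windows and do not show binding. Members' windows had a median GC content of 57.7%, against 52.7% for all windows.

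Genes of the same pathway outside the members were followed as lists, chosen with earlier results of these data known. In Panc02.3 with IFNg, where 23.2% of all genes rose and 31.6% fell, 41 of 42 other small subunit factors rose (median 1.15), led by Tsr2 (2.28) and Wdr3 (1.91). Of 40 other large subunit factors 36 rose and 3 fell (median 1.30), with the rRNA methyltransferase Ftsj3 at 2.48 ± 0.08 and Noc3l at 2.34 ± 0.09. Of 13 other RNA polymerase I genes 9 rose (median 1.09), and of 9 other snoRNP factors 7 rose (median 0.94). Other MYC targets rose in 21 and fell in 5 of 29 (median 0.84). Of 42 ribosomal protein genes, which encode the structural parts of the ribosome, 16 rose and 9 fell, with a median of 0.07, or 19 and 4 with a median of 0.11 when edgeR used the size factors of DESeq2. Of 25 proliferation genes 9 rose and 10 fell (median 0.07).

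Among genes of the MYC network, Max and Mxd4 changed beside Myc in this line. Max, the partner that MYC needs to bind DNA, rose by 0.76 ± 0.07 (adjusted p = 3.3e-14). Mxd4, which binds MAX in competition with MYC and represses, fell to 4.36, 5.00 and 3.68 CPM with IFNg, against 66.9, 96.4 and 89.2 CPM in NS (log2 −4.26 ± 0.17, adjusted p = 1.0e-29). With IFNb, Mxd4 had 82.5, 77.8 and 67.6 CPM (−0.14 ± 0.09, adjusted p = 0.45). The MYC network list of 14 genes split into 5 risen and 6 fallen with IFNg in Panc02.3. Mnt, also followed here, had 73.9, 59.6 and 70.6 CPM with IFNg, against 59.5, 65.3 and 64.9 CPM in NS, and these ranges overlapped. In the other lines Mxd4 with IFNg fell in 5, by 0.50 (YUMMER1.7) to 0.93 (Renca), rose in B16.1 by 0.86 ± 0.09, and in MC38.7 differed by −0.32 ± 0.13 (adjusted p = 0.19). LLC with IFNb had Mxd4 at 14.9, 17.1 and 16.5 CPM, against 33.5, 35.1 and 30.7 CPM in NS. Max stood there at 101, 102 and 100 CPM, against 78.7, 80.9 and 76.4 CPM. B16.1 with IFNb had Mxd4 at 44.6, 44.6 and 41.4 CPM, against 43.9, 46.1 and 48.7 CPM in NS.

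**Figure D3:**
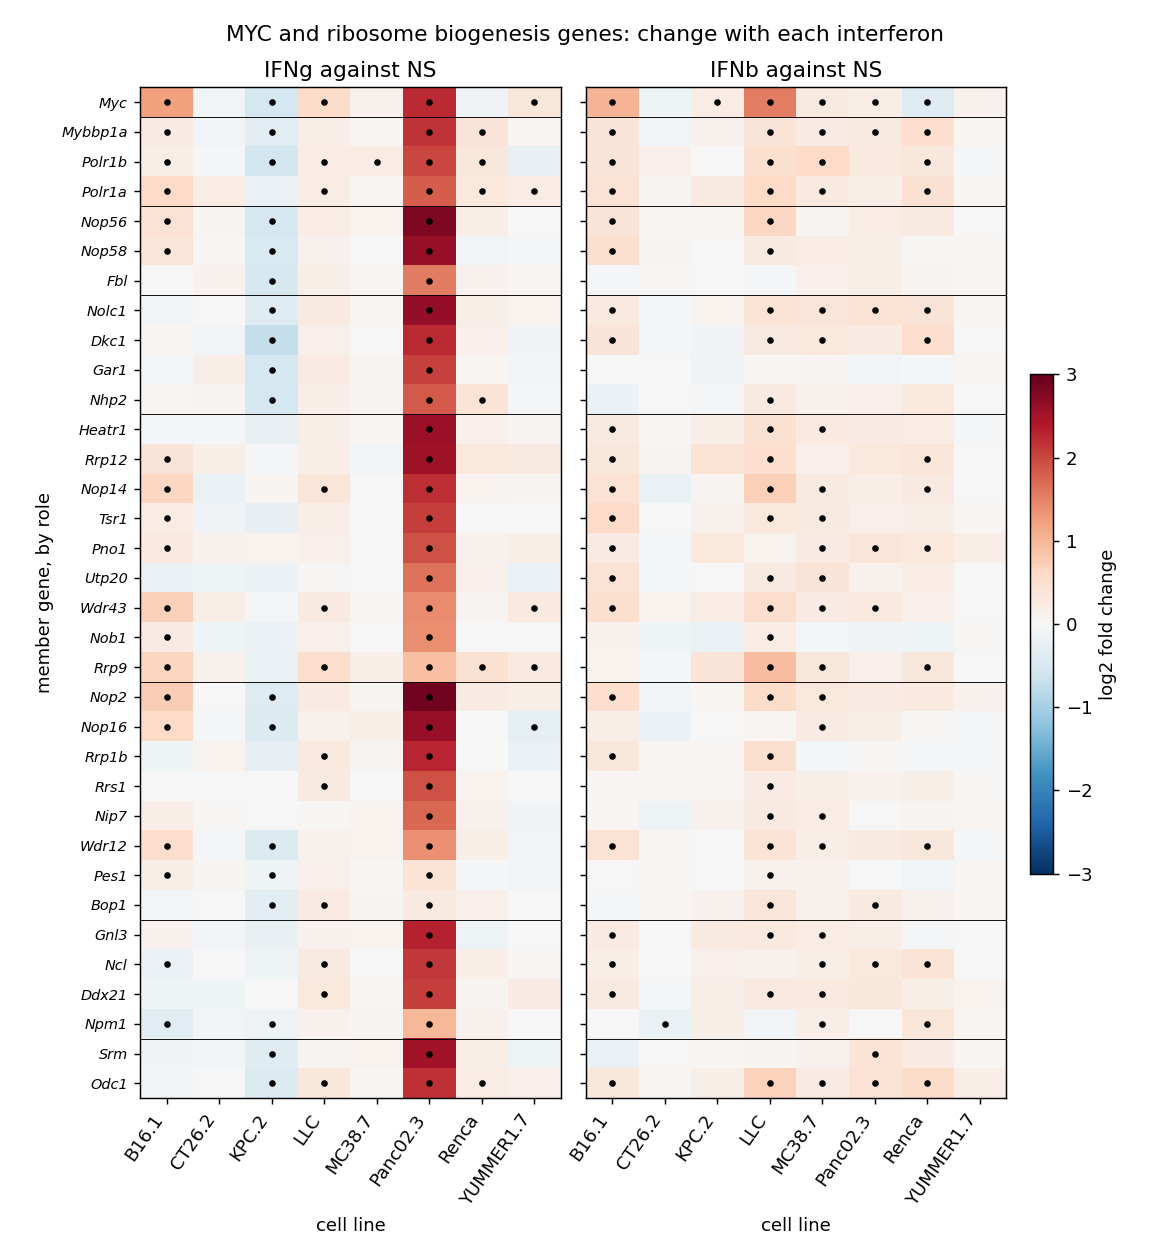
The log2 fold change of the 34 members in the 8 lines with IFNg (left) and IFNb (right) against NS; lines across separate the role groups and dots mark an adjusted p under 0.05. Panc02.3 with IFNg shows rises of 0.26 to 2.89 in all members, KPC.2 with IFNg shows falls, and the rises with IFNb other than that of Myc reach at most 0.93.

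Changes with IFNb were under 1 on the log2 scale in all members but Myc (in LLC and B16.1). Both comparisons share the NS libraries, so they are not independent. With IFNb, 27 members rose in LLC (17.6% of all genes rose there), 22 in B16.1 (14.6%), 22 in MC38.7 (13.8%), 13 in Renca (7.10%) and 9 in Panc02.3 (3.33%). Median log2 changes of the members were 0.31, 0.29, 0.23, 0.23 and 0.21 in that order, with all-gene medians between −0.01 and 0.00. On the equally weighted mean of the 8 lines 27 members rose with a median of 0.20 (13.0% of all genes rose), and with a single line left out, an alternative added after the data were seen, the number lay between 25 (without MC38.7, 11.3% of all genes) and 28 (without CT26.2, 13.7%). No member fell on that mean (17.3% of all genes), with edgeR, DESeq2 or limma-voom, or at an unadjusted p under 0.05 (21.1% of all genes). The leading members were Myc (0.36 ± 0.02), Odc1 (0.34 ± 0.02) and Polr1a (0.30 ± 0.03). The SE of a mean over lines measures spread between libraries, not between lines. With a single line left out, Myc lay between 0.19 ± 0.03 (without LLC) and 0.46 ± 0.02 (without Renca).

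The count of members that rose with IFNb was highest in LLC. Rrp9 had 179, 180 and 188 CPM with IFNb, against 92.8, 98.7 and 95.9 CPM in NS, a rise of 0.93 ± 0.07 (adjusted p = 3.3e-16). Nop14, another early small subunit factor, had 137, 133 and 140 CPM with IFNb, against 83.9, 81.9 and 84.5 CPM in NS (0.71 ± 0.07, adjusted p = 4.0e-12). Odc1 rose by 0.68 ± 0.06. The groups did not overlap for these 3 genes, and 6 members in all rose by at least 1.5-fold, against 7.18% of all genes. All 3 genes of the polymerase I group rose, as did 7 of 8 large subunit and 8 of 9 small subunit factors. The 7 members not called included Fbl (−0.03 ± 0.08), Npm1 (−0.08 ± 0.06) and Ncl (0.14 ± 0.07). Set against the mean change of the other 7 lines, 15 members were higher and 1, Npm1, lower in LLC (11.3% and 13.6% of all genes). That count of 16 was 9 without the replicates numbered 1. Of 13 mitochondrially encoded genes 10 fell in LLC with IFNb (median −0.75), with a share of counts of 1.42 to 1.45% with IFNb, against 1.95 to 2.13% in NS. The summed epithelial markers were 131 to 137 CPM with IFNb, against 308 to 336 CPM in NS, with Epcam and Cldn4 at 0 in both, and the mesenchymal markers 3562 to 3794 CPM with IFNb, against 6121 to 6246 CPM in NS. Of 25 proliferation genes 3 rose and 9 fell in LLC with IFNb (median −0.15), where 17.6% of all genes rose and 21.0% fell. The part of these measures was not tested.

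In B16.1 with IFNb the leading members after Myc were the small subunit factor Tsr1 (0.57 ± 0.09), Nop2 (0.50 ± 0.09) and Wdr43 (0.49 ± 0.08). Tsr1 had 130, 145 and 135 CPM with IFNb, against 95.7, 92.7 and 88.3 CPM in NS. In MC38.7 the leading members were Polr1b (0.57 ± 0.07), Utp20 (0.38 ± 0.08) and Nolc1 (0.37 ± 0.09). Polr1b had 138, 144 and 122 CPM there with IFNb, against 89.1, 85.2 and 101 CPM in NS. The count of 22 in MC38.7 was 13 without IFNb replicate 2.

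Renca with IFNb showed ribosome biogenesis genes higher beside a lower Myc. Odc1 had 491, 474 and 499 CPM with IFNb, against 336 and 331 CPM in NS (0.55 ± 0.07, adjusted p = 6.7e-09). Mybbp1a rose by 0.51 ± 0.08 and Dkc1 by 0.50 ± 0.10, and all 3 genes of the polymerase I group rose. Myc was the one member that fell (6.82% of all genes). The count of 14 called in Renca was 9 without NS replicate 3. In the same groups 16 of 25 proliferation genes rose (median 0.40) and 6 of 13 mitochondrially encoded genes fell, and their part was not tested.

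In Panc02.3 the members called with IFNb were led by Odc1 (0.44 ± 0.06), Srm (0.41 ± 0.11) and Nolc1 (0.40 ± 0.11), and 2 of 9 small subunit and 1 of 8 large subunit factors passed. The rise of Myc (0.21 ± 0.06, adjusted p = 0.041) was lost without any of 4 single libraries (adjusted p = 0.066 to 0.30). The count of 9 rested on single libraries. It was 20 without NS replicate 1 and 2 without any of NS replicates 2 and 3 or IFNb replicate 3. Nop2 had 61.4, 63.2 and 78.3 CPM with IFNb, against 75.2, 39.2 and 54.2 CPM in NS, and these ranges overlapped.

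KPC.2, CT26.2 and YUMMER1.7 gave little with IFNb. As given above, Isg15 was not called with IFNb in YUMMER1.7, and its smallest rise was in CT26.2. Both lines are part of the means over lines and of the tests between lines. Whether the few calls there go with a weak response to IFNb was not tested. In KPC.2 Myc was the one member that rose (2.52% of all genes), and 10 members were higher at an unadjusted p under 0.05 (5.99% of all genes). The count was 0 without IFNb replicate 2 or NS replicate 1. In CT26.2 Npm1 was the one member that fell (0.929% of all genes), with 1422, 1546 and 1590 CPM with IFNb, against 1741, 1707 and 1763 CPM in NS (log2 −0.20 ± 0.06, adjusted p = 0.047). That call was absent in 5 of 6 fits without a single library. In YUMMER1.7 edgeR and limma-voom called 0 members and DESeq2 1, where 0.384% of all genes rose and 0.972% fell. At an unadjusted p under 0.05, 1 member was higher, as were 3.60% of all genes.

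Members that rose with IFNb in many lines were spread over the roles. Myc, Nolc1, Mybbp1a and Odc1 rose in 5 lines each, as did 1.42% of all genes, and 12 members rose in at least 4 lines (2.61% of all genes). The polymerase I group of 3 rose whole in B16.1, LLC, MC38.7 and Renca. Gar1 and Fbl were called in no line with IFNb, with means over the lines of −0.00 ± 0.03 and 0.05 ± 0.03 (adjusted p = 1.0 and 0.28). The change with IFNb differed between lines in 24 members, against 48.2% of all genes, or in 15 without the replicates numbered 3.

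On the mean of the lines with IFNb, ribosomal protein genes fell while assembly genes rose. On the mean of the 8 lines 35 of 42 ribosomal protein genes fell (17.3% of all genes fell), by a median of 0.13 on the log2 scale. The other small subunit factors had 25 risen and 2 fallen of 42 (median 0.09), where 13.0% of all genes rose. The other large subunit factors had 28 risen and 4 fallen of 40 (median 0.12). Rises were not confined to assembly genes, as proliferation genes had 13 risen and 1 fallen of 25 (median 0.10). Other MYC targets had 9 risen and 5 fallen of 29 (median 0.01). B16.1 had 35 of 42 ribosomal protein genes fallen (median −0.35, 14.3% of all genes fell) beside 22 risen members, and in LLC 24 of 42 fell (median −0.20, 21.0% of all genes). The falls were fewer elsewhere, with 11 of 42 in MC38.7, 3 in Panc02.3, 1 in KPC.2, 1 in Renca and 0 in CT26.2 and YUMMER1.7. On the same mean 11 of 13 mitochondrially encoded genes fell (median −0.29), and their part in the result was not tested. Under DESeq2's size factors the number on the mean was 34 and the median −0.12. With B16.1 left out of the mean it was 27.

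**Figure D4:**
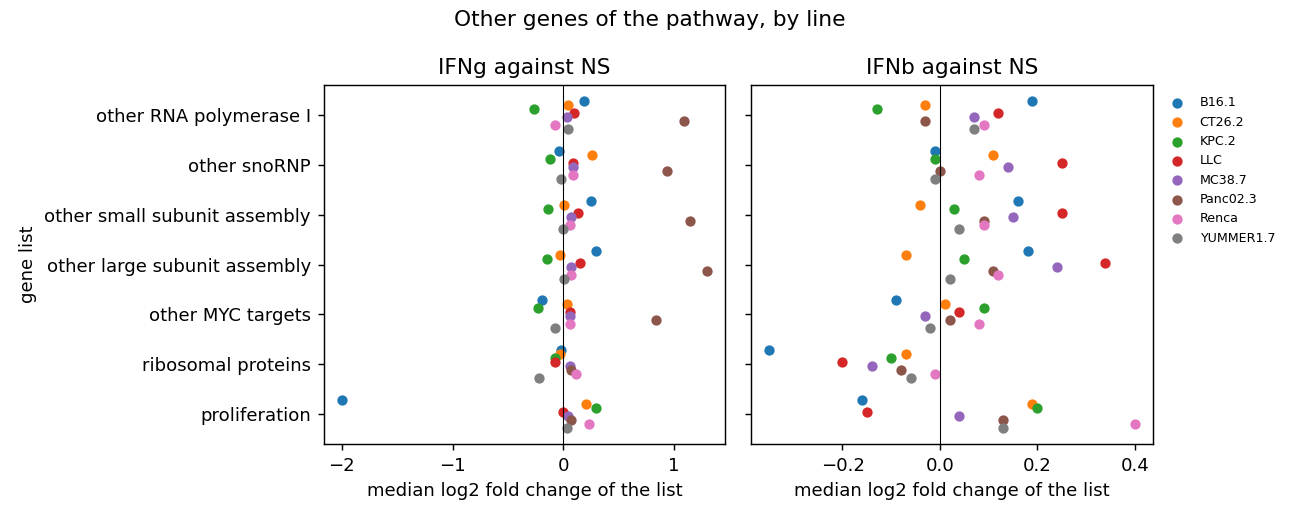
Median log2 fold change of 7 gene lists outside the members in each of the 8 lines (coloured points), with IFNg (left) and IFNb (right) against NS; the 2 panels have different horizontal scales. With IFNg Panc02.3 stands at 0.84 to 1.30 for the assembly, polymerase I, snoRNP and MYC target lists but at 0.07 for ribosomal proteins, and B16.1 lies farthest to the left for proliferation.

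KPC.2 with IFNg moved in the opposite direction to Panc02.3. Of the 34 members 18 fell, against 15.8% of all genes, and the median was −0.24 (−0.03 for all genes). Dkc1 had 39.3, 36.7 and 42.5 CPM with IFNg, against 67.3, 69.9 and 57.0 CPM in NS, and the groups did not overlap. It fell by 0.72 on the log2 scale (SE 0.11, adjusted p = 1.4e-07), followed by Polr1b (−0.56 ± 0.09) and Nhp2 (−0.53 ± 0.12). All 7 members of the snoRNP groups fell, with medians of −0.48 for box C/D and −0.53 for box H/ACA. Both polyamine enzymes fell too, Odc1 by 0.42 and Srm by 0.37, as did 5 of 8 large subunit factors and 2 of 3 polymerase I genes.

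The small subunit factors of KPC.2 were not called, with changes between −0.24 and 0.11 (Tsr1 and Pno1). By edgeR 0 of 9 passed, and Nop14 had 56.3, 63.7 and 62.0 CPM with IFNg, against 58.8, 57.7 and 54.2 CPM in NS. Of the wider list of 42 small subunit factors 16 fell and 2 rose (median −0.14), and of 40 large subunit factors 16 fell and 2 rose (median −0.15). Proliferation genes in the same libraries rose in 15 and fell in 1 of 25 (median 0.30). The count of 18 was 15 to 19 with any single library left out. The mitochondrial share of counts was 2.31 to 2.88% with IFNg, against 3.15 to 3.79% in NS. The summed epithelial markers were 9591 to 9990 CPM with IFNg, against 6439 to 6983 CPM in NS, and the mesenchymal markers 3031 to 3310 CPM with IFNg, against 1934 to 2130 CPM in NS. None of these overlapped, and their part in the result was not tested.

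B16.1 with IFNg gave a mixed picture, with 17 members risen and 2 fallen, against 27.6% and 26.5% of all genes. Nop2 had 279, 283 and 288 CPM with IFNg, against 175, 159 and 173 CPM in NS (0.74 ± 0.09, adjusted p = 4.0e-11). Wdr43 had 189, 184 and 184 CPM with IFNg, against 115, 114 and 112 CPM in NS (0.71 ± 0.08, adjusted p = 3.2e-12). Rrp9 rose by 0.64 ± 0.10, and the groups did not overlap for these 3 genes. Of 9 small subunit factors 7 rose, as did the 3 polymerase I genes, Nop56 and Nop58.

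The abundant nucleolar proteins did not rise in B16.1. Npm1 had 1146, 1148 and 1160 CPM with IFNg, against 1530, 1410 and 1424 CPM in NS (−0.34 ± 0.06, adjusted p = 9.2e-07). Ncl had 1671, 1790 and 1701 CPM with IFNg, against 2017, 1876 and 1924 CPM in NS (−0.17 ± 0.07, adjusted p = 0.035). The polyamine enzymes were at −0.08 ± 0.06 for Odc1 and −0.11 ± 0.08 for Srm and were not called, and the same held for the 4 box H/ACA genes, between −0.08 and 0.05. In these libraries 24 of 25 proliferation genes fell (log2 changes over the list from −3.40 to 0.32) and 16 of 29 other MYC targets fell while 6 rose. The summed melanocyte markers were 8922 to 9480 CPM with IFNg, against 20385 to 20845 CPM in NS, and the mesenchymal markers 2467 to 2582 CPM with IFNg, against 1248 to 1331 CPM in NS. The mitochondrial share was 2.82 to 2.97% with IFNg, against 1.75 to 2.08% in NS, and the part of these measures was not tested. Max rose by 1.10 ± 0.06. Against the mean change of the other 7 lines, which include Panc02.3, 8 members were higher and 12 lower in B16.1 (23.9% and 20.7% of all genes).

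The other 5 lines gave small changes with IFNg. In LLC 12 members rose (6.65% of all genes), led by Myc, Rrp9 (0.52 ± 0.08) and Nop14 (0.36 ± 0.08), and the median was 0.21. Both IFNg libraries lay above all 3 NS libraries in 32 members, as did 22.5% of all genes. With 2 IFNg libraries the count rested on each, with 7 called without replicate 1 and 4 without replicate 3. With the line fitted alone 31 were called. The share of all genes called in that fit was not computed, so 31 cannot be set against the 6.65% above.

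In Renca 6 members rose with IFNg (6.04% of all genes), Rrp9, Nhp2, Odc1 and the 3 polymerase I genes, and the count was 2 without NS replicate 2. Here 12 of 13 mitochondrially encoded genes fell (median −0.80), and their part was not tested. In YUMMER1.7 Myc, Rrp9, Wdr43 and Polr1a rose and Nop16 fell (9.79% and 11.0% of all genes), while 26 of 42 ribosomal protein genes fell (median −0.22). The count of 5 was 3 without IFNg replicate 1 or 2 and 8 without NS replicate 1. In MC38.7 Polr1b alone rose (3.89% of all genes), a call absent without IFNg replicate 2 or NS replicate 1 or 2. In CT26.2 edgeR and limma-voom called 0 members and DESeq2 2, and 3 were higher and 1 lower at an unadjusted p under 0.05 (9.13% and 11.1% of all genes), while at the adjusted threshold 4.97% of all genes rose and 3.86% fell. The count was 1 without IFNg replicate 1 or 3 or NS replicate 1 or 2.

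On the mean of the 8 lines with IFNg 33 members rose (18.3% of all genes), with a median of 0.29, and Bop1 was not called (0.04 ± 0.03, adjusted p = 0.27). This mean rested on Panc02.3. With Panc02.3 left out, an alternative added after the data were seen, 9 members rose (15.3% of all genes) and the median was 0.03. Those 9 were Rrp9 (0.29 ± 0.03), Myc (0.22 ± 0.02), Wdr43 (0.22 ± 0.03), Polr1a (0.20 ± 0.03), Rrp12, Nop2, Nop14, Pno1 and Mybbp1a. Leaving out any other line gave 33 or 34. Across the lines Polr1a, Polr1b and Rrp9 each rose in 5 with IFNg (3.59% of all genes), and all 34 members differed between lines in their change (69.2% of all genes).

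**Figure D5:**
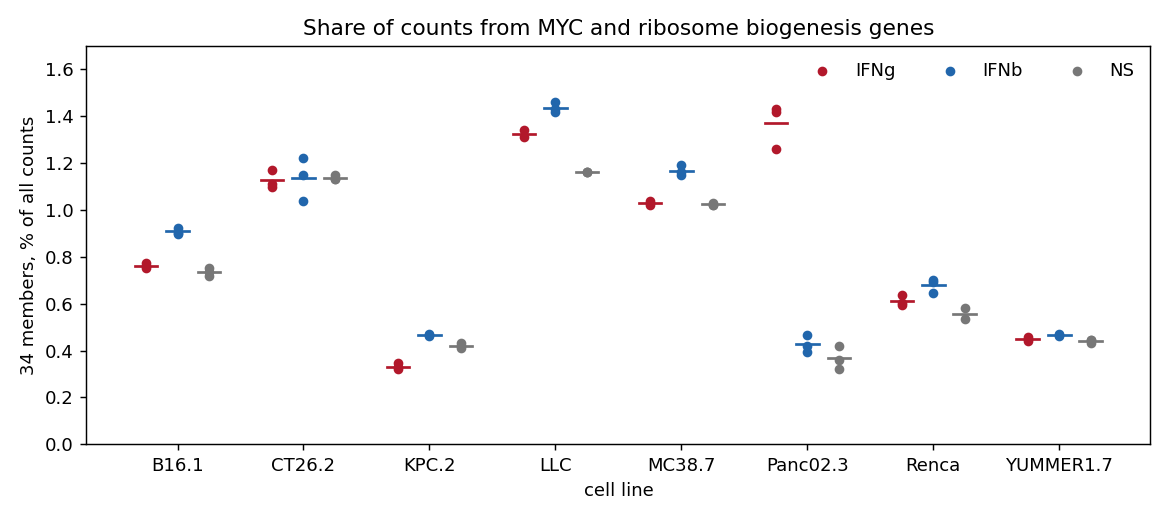
The share of all counts in a library that came from the 34 members, in percent, by line and treatment; points are libraries and short lines are group means. Panc02.3 reached 1.26 to 1.43% with IFNg, against 0.320 to 0.419% in NS, while KPC.2 fell to 0.320 to 0.345% with IFNg, against 0.411 to 0.431% in NS.

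Compared directly, IFNg and IFNb ranked differently by line. In Panc02.3 33 members were higher with IFNg than with IFNb (22.6% of all genes), by a median of 1.79, and Bop1 was not called (−0.01 ± 0.09). Nop2 led with 2.65 ± 0.09 and Myc differed by 2.03 ± 0.06. In KPC.2 26 members were lower with IFNg than with IFNb (9.18% of all genes), by a median of 0.43, with Myc at −0.75 ± 0.07, Dkc1 at −0.62 ± 0.12 and Odc1 at −0.60 ± 0.07. In LLC 15 were lower with IFNg and 1, Npm1, higher (12.5% and 16.8% of all genes), and Myc differed by −0.96 ± 0.07. The count of 16 in LLC was 10 without IFNg replicate 1.

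In MC38.7 15 members were lower with IFNg than with IFNb (10.5% of all genes), led by Utp20 (−0.39 ± 0.08) and Polr1b (−0.33 ± 0.06). That count was 9 without IFNb replicate 1 and 5 without IFNb replicate 2. In B16.1 7 were higher with IFNg and 11 lower (26.0% and 24.5% of all genes), with Rrp9 highest (0.54 ± 0.10) and Utp20 lowest (−0.61 ± 0.09). In Renca Myc was higher with IFNg (0.27 ± 0.06, 5.25% of all genes) and Dkc1, Odc1 and Npm1 lower (4.19%). In YUMMER1.7 Myc, Rrp9 and Wdr43 were higher with IFNg (9.09%), and the count of 3 was 1 without IFNb replicate 1 or 3 or IFNg replicate 2. In CT26.2 edgeR, DESeq2 and limma-voom called 0, with 2 higher and 1 lower at an unadjusted p under 0.05 (6.46% and 8.53% of all genes). At the adjusted threshold 4.02% of all genes were called in either direction, and 1 member was called without IFNb replicate 3. On the mean of the 8 lines 25 members were higher with IFNg (18.0% of all genes), led by Nop16 (0.29 ± 0.03), and Bop1 was lower (−0.09 ± 0.03, 18.7%). This mean rested on Panc02.3 and turned without it. With Panc02.3 left out, an alternative added after the data were seen, 0 members were higher and 21 lower with IFNg (18.3% and 16.9% of all genes), with a median of −0.11, Myc at −0.16 ± 0.02 and Nop16 at −0.01 ± 0.03. Without any other line 25 to 30 were higher. All 34 members differed between lines in this comparison (70.1% of all genes).

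Without stimulation the lines already stood far apart. Mean Myc was 327 ± 11.1 CPM in CT26.2 (SD, n = 3), 257 ± 9.06 in LLC (n = 3), 235 ± 4.06 in Renca (n = 2), 217 ± 11.7 in MC38.7 (n = 3) and 189 ± 7.58 in KPC.2 (n = 3). Below these came Panc02.3 at 100 ± 9.56, YUMMER1.7 at 76.7 ± 5.01 and B16.1 at 25.1 ± 1.57 CPM (n = 3 each). Single libraries of neighbours in this order did not overlap, and the closest were MC38.7 (205 to 228 CPM) and Renca (233 and 238 CPM). All 34 members differed between unstimulated lines, as did 96.5% of all genes.

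The unstimulated ribosome biogenesis genes matched the order of Myc only in its top lines, CT26.2 and LLC, and their relation was not tested. The line with the highest mean was CT26.2 in 15 members, Myc among them, and LLC in 14. These lines also had the most Myc. The lowest was Panc02.3 in 24 members and KPC.2 in 7, whereas B16.1, with the least Myc, was lowest for Myc alone. The members took 0.719 to 0.754% of counts in unstimulated B16.1, against 0.320 to 0.419% in Panc02.3, 0.411 to 0.431% in KPC.2 and 0.433 to 0.447% in YUMMER1.7. Renca, with more Myc than MC38.7, had 0.535 to 0.580%, against 1.02 to 1.03% in MC38.7. The highest line exceeded the lowest by 1.85-fold (Pes1) to 14.0-fold (Srm), with a median over members of 4.80-fold. Srm averaged 366 CPM in CT26.2 and 26.1 CPM in Panc02.3.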

How the data were processed

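RNA-seq libraries of 8 mouse cancer lines were measured after 48 hours with IFNg or IFNb, or without stimulation. The submitters' processing notes name Trimmomatic 0.36 and kallisto as tools and mm10 and GRCm38 as builds, and the authors deposited estimated counts per gene, so values need not be whole. How transcripts were summed to genes is not given in the sources used here. Here estimated counts were rounded to whole numbers, scaled by TMM and tested with edgeR 4.0.16 (quasi-likelihood, R 4.3.3) in 1 model of 70 libraries and 24 groups, after edgeR's filter on low counts left 16147 of 35197 genes. A gene was called at an adjusted p under 0.05 (Benjamini-Hochberg over all genes tested). Alternatives were DESeq2 1.42.0, its size factors, limma-voom 3.58.1, no filter, a replicate block, each line fitted alone, and leaving out each library. The procedure was run on simulated counts with known changes in Panc02.3 with IFNg. It recovered 57 of 67 genes changed 1.5-fold, 62 of 67 changed 2-fold and 66 of 66 changed 4-fold. There were 7 false calls with 14828 genes tested. The simulated lines did not differ and the changes were few and balanced. The simulation therefore cannot speak to changes as broad as the real ones in Panc02.3. Members, gene lists and tests were chosen with earlier results of these data known. Genes were named as the 3 largest rises and falls among called members of a comparison and the extremes of each role group. Other named genes, such as Max and Bop1, were chosen after their values were seen.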

Additional observations from a re-analysis of the deposited data

Results flagged for a closer look

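Responses that differed between lines by a test of the difference itself (edgeR's quasi-likelihood test, Benjamini-Hochberg adjusted) were as follows. The change with IFNg against NS differed between the 8 lines in 34 members (69.2% of all genes), with an adjusted p of 8.7e-34 for Myc. The change with IFNb against NS differed in 24 members (48.2% of all genes), with 1.0e-26 for Myc. The difference of IFNg from IFNb varied between lines in 34 members (70.1% of all genes), with 2.3e-34 for Myc. Against the mean change of the other 7 lines, Panc02.3 with IFNg differed in 34 members, all higher (19.8% of all genes). B16.1 with IFNg differed in 20, with 8 higher and 12 lower (23.9% and 20.7% of all genes). LLC with IFNb differed in 16, with 15 higher and 1 lower (11.3% and 13.6% of all genes).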

How the results depend on the processing

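The log2 change of Myc kept its direction in 189 of 189 refits and its call in 177. The 12 that lost the call were all for IFNb against NS in KPC.2 and Panc02.3. On the mean of the 8 lines for IFNg against IFNb, the direction turned when Panc02.3 was left out, with 21 members called, all lower.

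Counts of called members that moved by over 1.5 times were as follows. With DESeq2's size factors in edgeR there were 4 in KPC.2 and 1 in YUMMER1.7 for IFNb, and 2 in CT26.2 for IFNg. The DESeq2 test gave 5, 1 and 2 for the same, 8 in YUMMER1.7 for IFNg and 23 in MC38.7 for IFNg against IFNb, and limma-voom gave 2 in MC38.7 for IFNg. With no filter CT26.2 had 0 for IFNb. With each line fitted alone the counts were 0 (CT26.2), 6 (KPC.2), 1 (Panc02.3) and 1 (YUMMER1.7) for IFNb, 31 (LLC), 2 (MC38.7) and 12 (YUMMER1.7) for IFNg, and 26 (LLC), 30 (MC38.7) and 8 (YUMMER1.7) for IFNg against IFNb. For the fits of each line alone the shares of all genes called were not computed. The mean for IFNg without Panc02.3 gave 9. The cause was not tested.

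Leaving out single libraries, the counts ranged for IFNb from 0 to 1 (CT26.2), 0 to 1 (KPC.2), 13 to 24 (MC38.7), 2 to 20 (Panc02.3) and 9 to 14 (Renca). Leaving out all libraries of one replicate number, they ranged from 15 to 20 for the difference between lines with IFNb and 9 to 14 for LLC against the others. With single libraries left out, those for IFNg ranged from 0 to 1 (CT26.2), 4 to 11 (LLC), 0 to 1 (MC38.7), 2 to 7 (Renca) and 3 to 8 (YUMMER1.7). For IFNg against IFNb they ranged from 0 to 1 (CT26.2), 10 to 15 (LLC), 5 to 18 (MC38.7) and 1 to 3 (YUMMER1.7).

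Replicate numbers did not pair the libraries: same-numbered libraries correlated at −0.27 to 0.16 (median −0.01), over 0.1 in 3 of 68 pairs. With the replicate number as a block the count was 0 in CT26.2 for IFNb, and 4 in LLC and 0 in MC38.7 for IFNg, and the other counts stayed within 1.5 times.

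Depth limits KPC.2 with IFNb most, where 1 library held 668355 counts. Calls in groups of 2 libraries rest on few degrees of freedom of their own and on the spread shared by all groups.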
